A study of Mus musculus with 12 samples.

Results

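The cells described are the synovial innate lymphoid cells (ILCs) that the authors' deposited cell table annotates as ILC3-2. They were chosen by that annotation alone, and each cell was matched by barcode and well to the deposited matrices of transcript counts. The annotation holds 1027 cells, out of 4491 annotated ILCs and 8042 annotated cells of all kinds. All 1027 were found in the matrices of 3 wells, and no barcode was annotated ILC3-2 in more than 1 well. Among all annotated ILCs the healthy well shared 1 barcode with each of the other wells.

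Group 3 ILCs are lymphocytes without rearranged antigen receptors. On stimulation by interleukin-23 (IL-23) they secrete IL-17A, IL-17F and IL-22, cytokines that act on stromal and epithelial cells and recruit neutrophils. γδ T cells of skin and joints carry a T cell receptor with its CD3 subunits, use the same receptor for IL-23, and make the same cytokines. Group 2 ILCs instead depend on Gata3 and secrete IL-5 and IL-13.

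All animals carried the alleles Il5 wt/Cre and R26 tdTom/tdTom on the strain R5 x R26tdTomato, were 8 to 10 weeks old, and gave cells from ankle and wrist joints. In such animals Cre is made from the Il5 locus and leaves the red protein tdTomato in a cell and its progeny, so that the sorted cells had made Il5 at some time or descended from cells that had. Every group carries Cre at Il5, so no group has the locus intact on both alleles. The groups used here were untreated healthy mice and mice with serum transfer arthritis (STA), a joint inflammation set off by injected serum, that also received Il23mc, a DNA minicircle that makes the animal secrete IL-23.

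The sort kept viable CD45+ tdTomato+ cells and removed cells with CD3, TCRβ, TCRγδ, CD11b or GR-1 on their surface. Single-cell RNA was read from the 3′ end with unique molecular identifiers (UMIs), so that each UMI stands for 1 captured transcript. In the first experiment 3 healthy mice shared 1 well and 3 STA + Il23mc mice shared another, and antibody hashtags told the mice apart. The labels speak of 4 animals pooled per well, while each well held 3 hashtags. A hashtagged mouse is the replicate here, and p-values measure the spread between these mice. Because each condition had its own well, the condition and the well cannot be told apart. The STA + Il23mc mice, called Il23mc mice below, had both arthritis and the minicircle, so the parts of these cannot be told apart either. A well of the second experiment added 146 healthy cells annotated ILC3-2 under 1 hashtag, from an unknown number of animals. These are given as a description. The well of mice with STA alone carried no annotation by the authors and was not used here.

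The hashtag is the 15-base sequence that ties a cell to its mouse, and the same 3 sequences served both wells.
hashtag of mouse 1: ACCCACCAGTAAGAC
hashtag of mouse 2: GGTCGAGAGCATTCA
hashtag of mouse 3: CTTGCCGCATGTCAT

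Transcription start regions of 4 genes on which the description turns are shown because the letters AGGTCA form the half-site that many nuclear receptors bind. They are the 250 bases before the start site, from RefSeq on GRCm38.p6, written 5′ to 3′ along the gene, with AGGTCA or its reverse complement TGACCT in capitals. The windows are chr1:20730655-20730904 on the plus strand for Il17a, chr1:20784271-20784520 on the minus strand for Il17f, chr6:67491856-67492105 on the minus strand for Il23r, and chr11:53634703-53634952 on the minus strand for Il13.
Il17a: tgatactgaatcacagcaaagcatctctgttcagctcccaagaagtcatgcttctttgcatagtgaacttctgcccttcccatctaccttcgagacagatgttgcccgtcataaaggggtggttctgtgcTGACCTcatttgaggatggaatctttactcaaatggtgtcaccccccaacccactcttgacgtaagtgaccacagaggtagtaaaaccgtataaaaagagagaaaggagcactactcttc
Il17f: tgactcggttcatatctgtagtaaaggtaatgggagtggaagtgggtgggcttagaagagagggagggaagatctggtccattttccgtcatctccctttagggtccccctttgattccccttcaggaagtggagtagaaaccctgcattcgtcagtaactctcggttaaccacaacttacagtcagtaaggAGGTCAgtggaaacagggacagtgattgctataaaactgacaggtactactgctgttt
Il23r: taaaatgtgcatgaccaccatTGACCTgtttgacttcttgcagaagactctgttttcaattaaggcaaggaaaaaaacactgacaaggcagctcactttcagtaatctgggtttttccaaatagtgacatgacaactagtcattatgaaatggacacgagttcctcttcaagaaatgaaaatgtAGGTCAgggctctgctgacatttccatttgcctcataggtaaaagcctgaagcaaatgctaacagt
Il13: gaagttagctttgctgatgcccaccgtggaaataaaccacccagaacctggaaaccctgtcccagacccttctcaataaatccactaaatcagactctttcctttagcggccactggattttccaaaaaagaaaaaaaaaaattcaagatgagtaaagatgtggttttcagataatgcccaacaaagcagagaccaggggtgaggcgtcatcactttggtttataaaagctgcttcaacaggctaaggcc

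The motif lies 120 bases before the start of Il17a, 58 before that of Il17f, and 229 and 66 before that of Il23r. The Il17f window lies inside the gene as GENCODE places it (chromosome 1, 20777146 to 20790617). Its distance therefore holds for the RefSeq start only. The Il13 window does not hold these letters. Among all 32851 windows of 250 bases, 14.0% held AGGTCA on either strand. The palindromic letters TTCNNNGAA, the form bound by STAT factors, were in 7.02% of all windows and in 0 of these 4. A match describes the letters only.

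The cells were spread unevenly over the mice. Healthy mice 1, 2 and 3 gave 55, 80 and 298 cells, and Il23mc mice 1, 2 and 3 gave 298, 131 and 19. They made up 19.1%, 13% and 40.7% of the annotated ILCs of the healthy mice, a mean of 24.3% ± 14.5 (SD, n = 3). In the Il23mc mice they made up 44.7%, 23.7% and 5.69%, a mean of 24.7% ± 19.5 (SD, n = 3). The shares of both groups overlapped over most of their range. Il23mc mouse 3 stands apart with 19 cells and 86100 UMIs, against 304206 to 1791356 UMIs in the other 5 mice, so each value of it rests on few cells.

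Depth per cell was lower in the Il23mc mice. The median cell held 5309, 5413 and 5708.5 UMIs in the healthy mice and 4552.5, 4463 and 4294 in the Il23mc mice, and the groups did not overlap. Mitochondrial transcripts took a median of 4.20% to 4.48% of UMIs in healthy and 3.68% to 4.04% in Il23mc mice. Haemoglobin transcripts, which lymphocytes do not make, summed to 25.8 to 44.1 UMIs per 1e6 UMIs (CPM) in healthy and 0 to 0.663 in Il23mc mice. Neutrophil markers ran the other way, with 0 to 4.30 CPM in healthy and 23.2 to 73.6 CPM in Il23mc mice. The part of such free RNA in other results was not tested, though shares in another annotation are set beside some values.

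The data go against the name in the healthy mice. Il17a, Il22 and Il23r, the markers given for the annotation, summed to 8.37 to 52.6 CPM in healthy mice and to 1789 to 5977 CPM in Il23mc mice. A list of 10 ILC3 markers summed to 470 to 670 CPM in healthy mice and 2741 to 8438 CPM in Il23mc mice, with Ncr1 at 0 in both. A list of 9 ILC2 markers summed to 2427 to 2916 CPM in healthy and 740 to 1882 CPM in Il23mc mice. The groups did not overlap in any of these sums. Dendritic cell markers rested on H2-Aa, since Flt3 and Itgax were at 0, and B cell, macrophage and fibroblast markers each summed to less than 30 CPM in every mouse. The cells are therefore called by their annotation and given no other name.

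Il17a (ENSMUSG00000025929, mm10, chromosome 1, 20730905 to 20734496), a cytokine that defines type 3 responses, rose. It stood at 39.4, 19.3 and 3.91 CPM in healthy mice 1, 2 and 3 and at 1170, 2664 and 81.3 CPM in Il23mc mice 1, 2 and 3. All 3 Il23mc mice lay above all 3 healthy mice, and mouse 3 lay far below the other two Il23mc mice. The log2 change was 6.71 with a standard error (SE) of 0.976, with an adjusted p of 0.000378 by edgeR's quasi-likelihood test. Each SE given is the size of the log2 change over the square root of that test's F statistic, and is no direct model estimate. Il17f, its close relative, stood at 0, 6.44 and 10.6 CPM in healthy mice and 587, 466 and 46.5 CPM in Il23mc mice (log2 change 5.72, SE 0.627). The groups did not overlap, and mouse 3 was again the lowest of its group.

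Il22 (ENSMUSG00000074695, mm10, chromosome 10, 118204942 to 118210047) rose further. It stood at 13.1, 0 and 3.35 CPM in the healthy mice and 1463, 3172 and 1672 CPM in the Il23mc mice (log2 change 9.04, SE 0.519, edgeR adjusted p = 9.57e-07). The value of Il23mc mouse 3 rested on a single cell, which held 140 of its 144 Il22 UMIs. In mice 1 and 2 the top 5% of cells held 90.5% and 75.1% of the Il22 UMIs, and 62.4% and 47.3% of the Il17a UMIs. A few cells thus carried most of the Il22 transcripts in both mice and most of the Il17a transcripts in mouse 1. Of 298 cells of mouse 1, 125 held an Il17a UMI, 69 an Il22 UMI, 42 both and 146 neither. Of 131 cells of mouse 2, 70 held Il17a, 42 held Il22, 29 both and 48 neither.

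Il23r (ENSMUSG00000049093, mm10, chromosome 6, 67422932 to 67491855), the subunit specific to the IL-23 receptor, stood at 0, 4.30 and 1.12 CPM in healthy and 153, 141 and 34.8 CPM in Il23mc mice. The groups did not overlap (log2 change 6.34, SE 0.512, edgeR adjusted p = 4.23e-06). Il17a, Il17f, Il22 and Il23r each passed with any 1 mouse left out.

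Shares of cells with a UMI followed the same order and were set against ILC2-3, a group 2 annotation. Those of Il17a and Il22 were also set against ILC3-1 and ILC2-1. Il17a was found in 3.64%, 2.50% and 0.671% of healthy and 41.9%, 53.4% and 21.1% of Il23mc cells annotated ILC3-2. After thinning every cell to 2000 UMIs the Il23mc shares were 29.9%, 41.2% and 10.5%. In ILC2-3 of the Il23mc mice, whose median depths were 5113, 6082.5 and 3901 UMIs, the thinned shares were 8.57%, 6.06% and 4.08%. The Il17a share of ILC3-2 exceeded that of ILC2-3 in each Il23mc mouse, but mouse 3 counted only 4 such ILC3-2 cells before thinning. Thinned Il17a shares were 42.1%, 47.8% and 22.2% in ILC3-1, above ILC3-2 in each mouse, though mouse 3 had 9 such cells. In ILC2-1 they were 30.1%, 6.45% and 8.82%, so mouse 1 had about the same share there as in ILC3-2. For Il22 the thinned shares were 15.4%, 24.4% and 21.1% in ILC3-2 and 8.57%, 0% and 12.2% in ILC2-3. They were 31.1%, 37.8% and 11.1% in ILC3-1 and 24.7%, 10.8% and 11.8% in ILC2-1. ILC3-2 thus had the lower Il22 share than ILC3-1 in mice 1 and 2, and than ILC2-1 in mouse 1. For Il23r the thinned shares were 25.2%, 20.6% and 15.8% in ILC3-2 and 0%, 0% and 2.04% in ILC2-3. In mouse 3 before thinning, Il22 was found in 5 of 19 cells annotated ILC3-2 (26.3%) and in 23 of 98 cells annotated ILC2-3 (23.5%). The shares lay close together, and their source was not tested. Other annotations of that mouse had less, with 14.7% in ILC2-1, 11.9% in ILC2-2, 6.25% in precursors and 11.1% in ILC3-1. Il23r was found in 3 of 19 ILC3-2 cells and 3 of 98 ILC2-3 cells of mouse 3 before thinning.

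**Figure D1:**
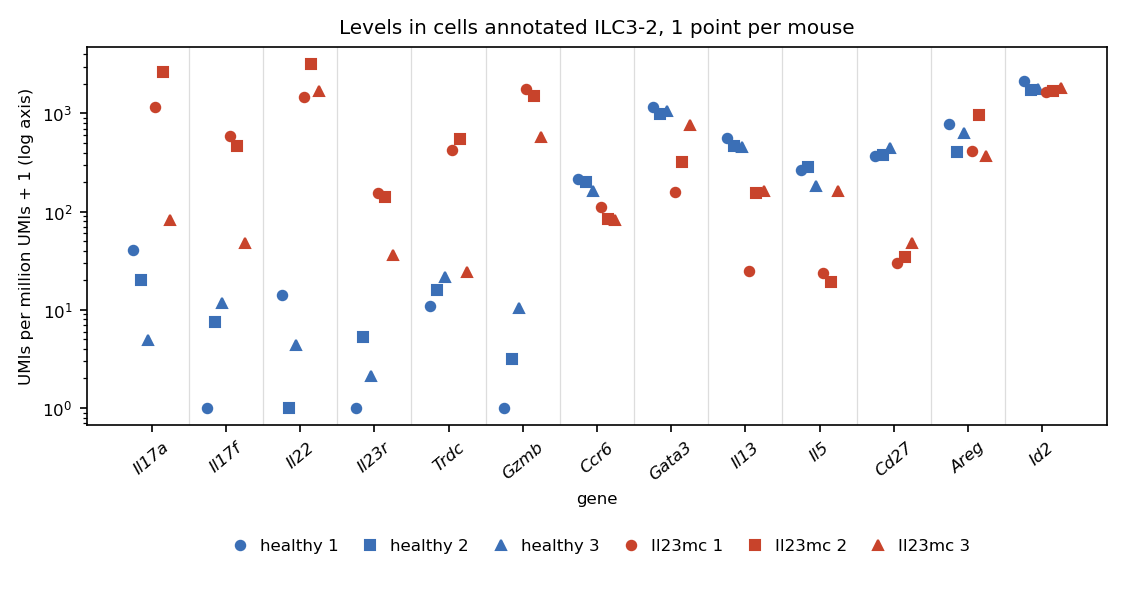
Levels of 13 genes in cells annotated ILC3-2, in CPM plus 1 on a log axis, with 1 point per mouse for the 3 healthy and 3 STA + Il23mc mice. Il17a, Il17f, Il22, Il23r and Gzmb lie higher in all 3 Il23mc mice, Gata3, Il13, Il5 and Cd27 lie lower in all 3, and Areg and Id2 overlap.

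Of the 13 type 3 effector genes listed, 12 were in the files and 11 passed the filter on low counts. Il17a, Il17f, Il22, Il10 and Ltb rose and Tnfsf11 and Lta fell by edgeR's test, while 4 did not pass it. The list's median log2 change was 0.04, against −0.01 over all 5216 genes tested. Across those genes 604 were higher (11.6%) and 526 lower (10.1%) at an adjusted p under 0.05. For Il10, which restrains inflammation, 2 healthy UMIs stood against 113, a log2 ratio of 6.01 with a 95% counting interval of 4.12 to 9.07. Ltb, a lymphotoxin subunit that guides lymphoid tissue, rose by a log2 change of 0.83. Ltb, Lta and Tnfsf11 each lost their call without healthy mouse 3 (0.58, −1.89 and −1.73) and without Il23mc mouse 1 (0.74, −0.94 and −0.95), among other single mice. Areg, an epidermal growth factor relative tied to tissue repair, stood at 776, 406 and 626 CPM in healthy and 410, 965 and 372 CPM in Il23mc mice. The groups overlapped (log2 change 0.04, edgeR adjusted p = 0.953). Ifng, the cytokine of type 1 responses, was too low for the fit, with 3 healthy and 122 Il23mc UMIs and a log2 ratio of 5.53 (95% counting interval 3.95 to 7.83).

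Receptors for the cytokines that drive type 3 cells moved in the same samples. Of 16 listed, 12 passed the filter, 6 rose, 1 fell and 5 did not pass the test, with a median log2 change of 0.71. Il1r1, the signalling receptor for IL-1, had 2 healthy UMIs against 555, a log2 ratio of 8.30 (95% counting interval 6.44 to 11.35). Its decoy Il1r2 stood at 36.2, 43.0 and 4.47 CPM in healthy and 344, 702 and 11.6 CPM in Il23mc mice, so the groups overlapped through mouse 3 (log2 change 4.45, edgeR adjusted p = 0.00155). Il2ra, the high-affinity subunit for IL-2, stood at 365, 380 and 223 CPM in healthy and 1578, 1953 and 883 CPM in Il23mc mice (log2 change 2.28). Il21r and Il27ra rose by 0.97 and 0.98 on the log2 scale. The subunit Il6ra, which binds IL-6, fell by 3.99 on that scale, with an edgeR adjusted p of 0.000118. Il21r and Il27ra were not called without healthy mouse 3 (0.70 and 1.13) or Il23mc mouse 1 (0.96 and 1.02), and Il21r also not without healthy mouse 2 (0.81) or Il23mc mouse 2 (0.82). Il7r, the receptor for the survival factor IL-7, had a log2 change of 0.01 and did not pass.

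Among 19 transcription factors that passed the filter, 6 rose, 4 fell and 9 did not pass the test, with a median log2 change of 0.12. Zbtb16, which encodes PLZF, a factor of innate-like T cells and ILC precursors, stood at 6.57, 0 and 2.79 CPM in healthy and 58.3, 59.8 and 58.1 CPM in Il23mc mice (log2 change 4.40). Batf, an AP-1 factor of activated lymphocytes, and Hif1a, a factor of hypoxia, rose by 2.81 and 1.75 on the log2 scale. Runx3 and Stat3 rose by 0.77 and 0.68. Tcf7, Tox and Ikzf3 fell by 2.45, 1.74 and 0.86 on that scale. All edgeR adjusted p-values for these 7 were between 1.25e-05 and 0.0415. Runx3 lost its call without healthy mouse 2 or 3 (0.72 and 0.64) or Il23mc mouse 1 (0.61), and Stat3 without any single mouse other than Il23mc mouse 3 (0.49 to 0.76). Id2 and Rora, which all ILCs use, had log2 changes of −0.11 and −0.33 and did not pass, although Rora fell by a log2 change of 0.55 without Il23mc mouse 3.

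Gata3, Il13 and Il5 of the 9 ILC2 markers stood lower in the Il23mc mice, while the other members did not all follow. Il1rl1 had 39 healthy and 44 Il23mc UMIs, Klrg1 9 and 10, and Hs3st1 5 and 38, out of 2561198 and 2247780 UMIs in all. Areg overlapped between the groups. Calca had 492 and 254 UMIs and was not called, and Il17rb had 63 and 25. Gata3 (ENSMUSG00000015619, mm10, chromosome 2, 9857078 to 9890034) stood at 1157, 988 and 1048 CPM in healthy and 156, 319 and 755 CPM in Il23mc mice. The groups did not overlap, and mouse 3 stood closest to the healthy mice (log2 change −1.57, SE 0.394, edgeR adjusted p = 0.0127). Without healthy mouse 3 or Il23mc mouse 2 the edgeR adjusted p was 0.0548 and 0.0610. A Gata3 UMI was found in 89.1%, 90.0% and 89.6% of healthy cells and in 33.9%, 45.8% and 68.4% of Il23mc cells. Il13 stood at 562, 464 and 459 CPM in healthy and 23.9, 155 and 163 CPM in Il23mc mice (log2 change −2.37, edgeR adjusted p = 0.00477). Il5 stood at 266, 283 and 180 CPM in healthy mice, against 22.5, 18.4 and 163 CPM in Il23mc mice (log2 change −2.92, edgeR adjusted p = 0.000979). Both cytokines were lower in every Il23mc mouse. Il2, the T cell growth factor, was lower too, at 283, 81.6 and 40.2 CPM against 7.29, 18.4 and 11.6 CPM (log2 change −3.24). Its call was lost without Il23mc mouse 1 (log2 change −2.66, edgeR adjusted p = 0.115). Of the 6 genes of the list of other lymphocyte cytokines that passed the filter, these 3 fell and none rose.

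The share of cells with a Cd3d or Cd3e UMI set Il23mc mice 1 and 2 apart from the other 4 mice. Cd3d and Cd3e, subunits of the CD3 complex that carries the receptor's signal, had at least 1 UMI in 0%, 2.50% and 5.37% of healthy cells and in 84.2%, 74.8% and 15.8% of Il23mc cells annotated ILC3-2. The groups did not overlap, and mouse 3 stood nearer to the healthy mice than to the other Il23mc mice. Its share was 3 of 19 cells, with an exact 95% interval of 3.38% to 39.6%. The mean share was 2.62% ± 2.69 (SD, n = 3) in healthy and 58.3% ± 37.1 (SD, n = 3) in Il23mc mice. The difference of 55.7 percentage points gave a two-sided exact permutation p of 0.1, the smallest that 3 mice against 3 allow. In the healthy hashtag of the second experiment the share was 1.37%.

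Depth and free RNA were set beside that share. With every cell thinned to 2000 UMIs the shares were 0%, 0% and 1.34% in healthy and 79.2%, 69.5% and 10.5% in Il23mc mice. In ILC2-3 of the same Il23mc mice, unthinned, 8.57%, 7.58% and 7.14% of cells held a Cd3d or Cd3e UMI. The share in mice 1 and 2 stood far above that level, and in mouse 3 the interval of its 3 cells covered it. The annotation ILC3-1 had 97.0%, 91.1% and 44.4% in the Il23mc mice, the last from 4 of 9 cells, and ILC2-1 had 68.5%, 18.3% and 2.94%. Counting Cd3g as well gave 36.4%, 22.5% and 37.2% in healthy mice and 87.9%, 81.7% and 31.6% in Il23mc mice, and the groups then overlapped. Cd3g thus had UMIs in many healthy cells in which Cd3d and Cd3e had none.

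**Figure D2:**
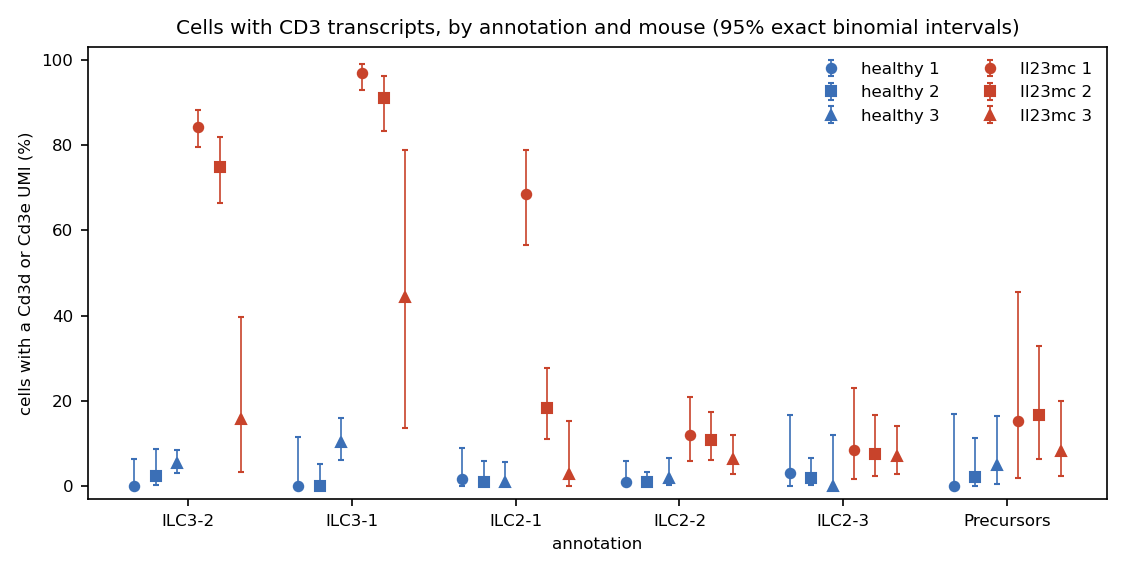
Share of cells with a Cd3d or Cd3e UMI, in percent, for each ILC annotation and each of the 6 mice of the first experiment, with exact 95% binomial intervals that cover counting error only. Cells annotated ILC3-2 stand at 84.2% and 74.8% in Il23mc mice 1 and 2, at 15.8% in mouse 3 and at 0% to 5.37% in the healthy mice.

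Of 25 listed CD3 and T cell receptor genes 18 passed the filter, and 12 rose, 2 fell and 4 did not pass the test. The median log2 change was 1.62, the same with Cd6 placed at its lower bound. Cd3d (ENSMUSG00000032094, mm10, chromosome 9, 44981786 to 44987339) stood at 0, 2.15 and 9.49 CPM in healthy and 816, 890 and 151 CPM in Il23mc mice (log2 change 6.69). Trdc, the constant region of the receptor's δ chain, stood at 9.86, 15.0 and 20.7 CPM in healthy and 421, 547 and 23.2 CPM in Il23mc mice (log2 change 4.50). Mouse 3 lay only just above the healthy mice for Trdc and well above them for Cd3d. Tcrg-C1, a constant region of the γ chain, had a log2 change of 5.26 and Tcrg-C2 a log2 ratio of 7.06 (95% counting interval 5.19 to 10.11). These near-identical segments could share reads, so the split between them is uncertain. Trac, the α chain constant region, rose by 2.88 on the log2 scale and Trbc2, of the β chain, by 1.19. Trac stood at 36.2, 38.7 and 40.2 CPM in healthy and 398, 187 and 197 CPM in Il23mc mice. Trbc2 stood at 266, 277 and 371 CPM in healthy and 938, 571 and 488 CPM in Il23mc mice. For both genes mouse 3 lay near mouse 2. Trbc1, the near-identical neighbour of Trbc2, had a log2 change of −0.35 and did not pass. Cd6 had 0 healthy UMIs and was at least 47.1-fold higher, taking 3 counts over the group as the floor. Cd4, Cd8a, Cd8b1, Cd5 and Cd6 had no UMI in healthy cells.

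The surface receptor genes of this list that fell were Cd27 and Cd28. Cd27, a costimulatory receptor whose absence marks γδ T cells that make IL-17 in mice, stood at 365, 378 and 439 CPM in healthy and 29.2, 33.7 and 46.5 CPM in Il23mc mice. The groups stood far apart, and the mice of each lay close together (log2 change −3.58, SE 0.217, edgeR adjusted p = 9.57e-07). Blk, a kinase of B cells and of γδ T cells that make IL-17, had 1 healthy UMI against 427, a log2 ratio of 8.93 (95% counting interval 6.44 to 14.23). T cell markers summed over 13 genes ran from 1087 to 1285 CPM in healthy and 1556 to 4329 CPM in Il23mc mice. γδ T cell markers summed over 11 genes ran from 572 to 677 CPM in healthy and 546 to 1912 CPM in Il23mc mice, where they overlapped.

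Within the Il23mc mice, the cells with and without a Cd3d or Cd3e UMI were described apart. Mouse 1 had 251 cells with and 47 without, mouse 2 had 98 and 33, and mouse 3 had 3 and 16. Median depths were 4813 and 3621 UMIs in mouse 1 and 5024.5 and 3543 UMIs in mouse 2, so cells with a UMI were also the deeper cells. Il17a stood at 1310 CPM in cells with and 86.7 CPM in cells without in mouse 1, and at 3259 and 33.2 CPM in mouse 2. Il22 had 1648 against 28.9 CPM in mouse 1, and 3881 against 33.2 CPM in mouse 2. In these mice nearly all UMIs of both cytokines came from the cells with a Cd3d or Cd3e UMI, such as 1750 of Il17a against 15 in mouse 1 and 1735 against 4 in mouse 2. In mouse 3 Il17a had 1 UMI in the cells with and 6 in the cells without, and all 144 Il22 UMIs lay in the cells without.

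Gata3 and the MHC class II genes ran against the cytokines in this split in mice 1 and 2, and Gzmb ran with them. Gata3 stood at 92.1 CPM in cells with and 653 CPM in cells without a Cd3d or Cd3e UMI in mouse 1, and at 133 and 1138 CPM in mouse 2. The level without such UMIs in mouse 2 lay within the healthy range. Cd74, the invariant chain of MHC class II, had 186 against 1913 CPM in mouse 1, and 207 against 2534 CPM in mouse 2. H2-Aa, an MHC class II chain, had 17 UMIs in the cells with and 120 in the cells without in mouse 1, and 0 and 147 in mouse 2. Gzmb, a protease of cytotoxic granules, had 1996 against 179 CPM in mouse 1, and 1832 against 41.5 CPM in mouse 2.

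**Figure D3:**
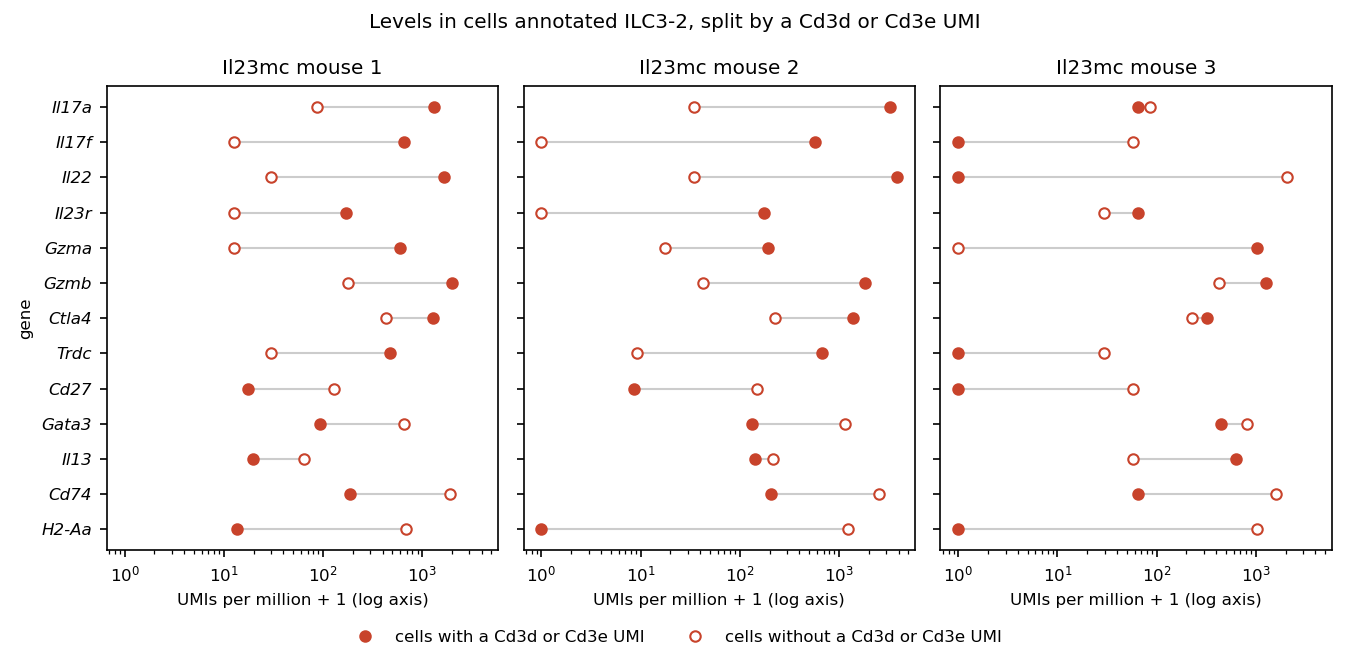
Levels of 13 genes in cells with and without a Cd3d or Cd3e UMI, in CPM plus 1 on a log axis, 1 panel for each Il23mc mouse. In mice 1 and 2 Il17a, Il22 and Gzmb lie higher in the cells with such a UMI and Gata3 and Cd74 in the cells without, while mouse 3 has 3 cells with and 16 without.

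The comparison was run again without the cells that held a Cd3d or Cd3e UMI, called Cd3d or Cd3e cells from here on. It tested 3025 genes, of which 178 were higher (5.88%) and 132 lower (4.36%) by edgeR's test. Of the 1130 genes called with all cells, 737 could be tested, 213 were called the same way and 655 kept their sign. Another 93 genes were called only in this comparison. The 4 genes called the opposite way, chosen here after their values were seen, were Plaur, Lat, Lgals3 and Avpi1. Lat, an adaptor of T cell receptor signalling, had log2 changes of 1.23 with all cells and −1.39 without these cells. Lgals3, a lectin, had 1.04 and −1.28, Avpi1 0.90 and −1.86, and Plaur, the urokinase receptor, −1.22 and 1.14. Il17a, Il17f, Il22 and Il23r were now too low for the fit. Gata3 then had a log2 change of −0.24 with an edgeR adjusted p of 0.523, from 653, 1138 and 824 CPM in the Il23mc mice. Il13 and Il5 kept their calls, with log2 changes of −2.04 and −1.33, and so did Cd27, with −1.68, Hif1a, with 1.19, and Batf, with 1.52. Calca, another ILC2 marker that was not called with all cells, was called higher. Il7r, which did not pass with all cells, rose by a log2 change of 0.66 without the Cd3d or Cd3e cells. Il2ra rose by 0.83, and without Il23mc mouse 3 as well it had 0.64 and did not pass. Tcf7, Tox and Ikzf3 had −0.79, −1.22 and −0.04 and no longer passed. Of the 11 CD3 and T cell receptor genes that passed the filter, 0 rose by edgeR's test and Cd28, Trbc1, Cd27 and Lat fell. Cd3d, Cd3e, Trac, Trdc and Tcrg-C1 were among those now too low for the fit. Since the cells were removed by Cd3d and Cd3e, a smaller rise of this list was built in and is no separate result.

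**Figure D4:**
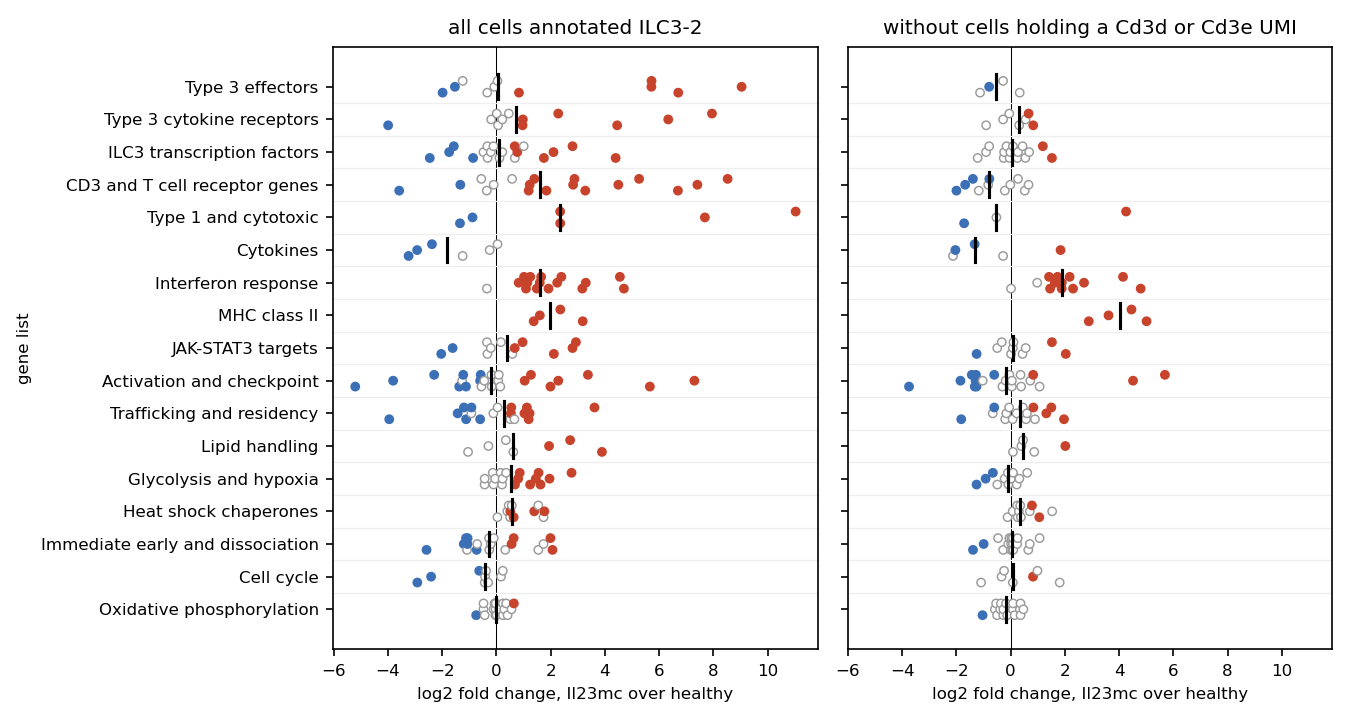
Log2 change, Il23mc over healthy, of the members of 17 gene lists in cells annotated ILC3-2, with all cells on the left and without Cd3d or Cd3e cells on the right. Filled points passed the edgeR threshold. Black ticks are list medians, which stand at 1.63 and 1.88 for interferon response (16 and 13 genes). They stand at 1.62 and −0.79 for CD3 and T cell receptor genes (18 and 11 genes). The medians of the 2 sides cover different genes, and the removal of cells by Cd3d and Cd3e builds in a lower value for the latter list.

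Genes that interferon induces stood higher with or without those cells. Of 20 listed, 16 passed the filter with all cells, and 15 rose and 1 did not pass the test, with a median log2 change of 1.63. Without Cd3d or Cd3e cells 13 passed the filter, and 11 rose and 2 did not pass the test, with a median of 1.88. Gbp2, a guanylate-binding protein that attacks vacuoles of intracellular microbes, stood at 0, 6.44 and 4.47 CPM in healthy and 126, 79.7 and 163 CPM in Il23mc mice (log2 change 4.70). Every Il23mc mouse stood far above every healthy mouse, and without those cells the log2 change was 4.79. Igtp, a related GTPase, rose by 3.17 and by 4.14 on the log2 scale, and Irf1 by 1.14 and 1.88. B2m, the light chain of MHC class I, rose by 1.49 and 1.45. Guanylate-binding proteins are close relatives and may share reads.

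The 4 MHC class II genes that passed the filter rose in both comparisons, and their median log2 change was 1.98 with all cells and 4.03 without Cd3d or Cd3e cells. H2-Aa stood at 16.4, 53.7 and 25.7 CPM in healthy and 90.8, 225 and 836 CPM in Il23mc mice (log2 change 3.18, edgeR adjusted p = 0.00584). Without those cells it stood at 693, 1221 and 1022 CPM in the Il23mc mice (log2 change 5.01, edgeR adjusted p = 3.74e-07). The Il23mc mice then lay close together and far above the healthy mice. H2-Eb1 and H2-Ab1 had log2 changes of 2.36 and 1.60 with all cells and of 4.45 and 3.61 without. Cd74 stood at 187, 500 and 180 CPM in healthy and 384, 636 and 1324 CPM in Il23mc mice, where the groups overlapped (log2 change 1.38, edgeR adjusted p = 0.0421). With all cells, all 4 lost their call without healthy mouse 3, at log2 changes of 2.99 for H2-Aa, 2.15 for H2-Eb1, 1.14 for H2-Ab1 and 1.11 for Cd74. H2-Ab1 lost it also without Il23mc mouse 2 (1.39), and Cd74 without healthy mouse 1 (1.16) or Il23mc mouse 2 or 3 (1.46 and 0.89).

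Cytotoxic genes split by member. Gzma, a granule protease, had no UMI in any healthy mouse and stood at 535, 158 and 186 CPM in Il23mc mice, at least 351.7-fold higher when 3 counts over the healthy group are taken as the floor. Gzmb stood at 0, 2.15 and 9.49 CPM in healthy and 1788, 1502 and 581 CPM in Il23mc mice (log2 change 7.69, edgeR adjusted p = 2.31e-06). A Gzmb UMI was found in 62.1%, 57.3% and 26.3% of Il23mc cells. Ccl5, a chemokine of effector lymphocytes, rose by 2.35 on the log2 scale with all cells and by 4.26 without Cd3d or Cd3e cells. With all cells and without healthy mouse 3 it was not called (2.07, edgeR adjusted p = 0.0826). Klrk1, which encodes NKG2D, and Nkg7 fell by 1.34 and 0.88. Of 17 listed type 1 and cytotoxic genes 6 passed the filter with all cells, 4 rose and these 2 fell, with a median log2 change of 2.35 that was the same with Gzma at its bound. Ncr1 was at 0, and Klrb1c had 0 healthy and 12 Il23mc UMIs.

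Among genes of activation and checkpoints 23 passed the filter, and 7 rose, 8 fell and 8 did not pass the test, with a median log2 change of −0.18. Ctla4, an inhibitory receptor for CD80 and CD86, stood at 13.1, 8.59 and 3.35 CPM in healthy and 1191, 1164 and 244 CPM in Il23mc mice (log2 change 7.30, edgeR adjusted p = 5.92e-06). The groups were far apart, and the change without Cd3d or Cd3e cells was 5.69. Pdcd1, which encodes the inhibitory receptor PD-1, stood at 0, 23.6 and 1.12 CPM in healthy and 290, 308 and 186 CPM in Il23mc mice (log2 change 5.66, or 4.51 without those cells). Havcr2, which encodes TIM-3, rose by 3.38 on the log2 scale. Cd9, a tetraspanin, and Cd83, a marker of activation, fell by 5.20 and 3.81 on the log2 scale, and the costimulatory receptor Tnfrsf4 by 1.37. Lilr4b and Lilrb4a, inhibitory receptors whose reads may be shared, had log2 changes of 4.86 and 4.62, and of 4.75 and 4.51 without those cells.

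Homing receptors and signals moved both ways, with 7 of 18 higher, 6 lower and 5 past neither side, and a median log2 change of 0.28. Ccr2, the receptor for monocyte chemoattractants, stood at 29.6, 43.0 and 45.2 CPM in healthy and 574, 536 and 290 CPM in Il23mc mice (log2 change 3.62). Ccr6, which type 3 cells use to follow CCL20, fell by 0.92 on the log2 scale, and by 1.82 without Cd3d or Cd3e cells. Ccr8 fell by 3.95, and Itgae, the integrin chain that binds E-cadherin, by 1.20. Cxcl3, a chemokine for neutrophils, stood at 16.4, 23.6 and 1.12 CPM in healthy and 321, 1217 and 1858 CPM in Il23mc mice, without overlap (log2 change 7.01). Ccl1, the ligand of CCR8, stood at 105, 367 and 71.5 CPM in healthy and 2.65, 6.13 and 11.6 CPM in Il23mc mice (log2 change −5.30, edgeR adjusted p = 0.000584). Cd70, the ligand of CD27, stood at 102, 125 and 72.6 CPM in healthy and 0, 3.06 and 23.2 CPM in Il23mc mice (log2 change −5.52). Receptor and ligand of the CD27 pair were thus both lower in every Il23mc mouse.

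Metabolic lists differed from one another. Of 18 genes of glycolysis and hypoxia that passed the filter, 9 rose, 0 fell by edgeR's test and 9 did not pass it, with a median log2 change of 0.52. Slc2a3, a glucose transporter, rose by 2.77 on the log2 scale and Pfkp, a glycolytic kinase, by 1.56. Without Cd3d or Cd3e cells 0 of 12 rose and Eno1, Hk2 and Gapdh fell. Of 18 genes of oxidative phosphorylation 16 did not pass, 1 rose and 1 fell, and the median was −0.01. Among 7 genes of lipid handling 3 rose, with Plin2, which coats lipid droplets, at 0, 8.59 and 11.2 CPM in healthy and 149, 113 and 128 CPM in Il23mc mice (log2 change 3.89). Dgat1, which makes triglycerides, rose by 2.72, and by 2.02 without those cells.

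Targets of JAK-STAT3 signalling rose in 5 of 12 cases and fell in 2, with a median log2 change of 0.38. Socs3, the feedback inhibitor of that pathway, had a log2 change of 2.93 and Bcl3, a partner of NF-κB, one of 2.12. Bcl2l1, which protects cells from death, fell by 2.03 on the log2 scale. Of 19 immediate early genes 4 rose and 6 fell, with a median log2 change of −0.26, and 9 failed to pass the test. Of 11 heat shock chaperones 4 rose, with a median log2 change of 0.57, and 7 failed to pass. Of the named members Jun was not called without healthy mouse 3 or Il23mc mouse 2 (1.53 and 1.65), and Egr1 without healthy mouse 3 or Il23mc mouse 1 (2.11 and 0.94). Both lists also follow handling of the tissue, and the part of that was not tested. Of 9 cell cycle genes that passed the filter, 3 fell, the other 6 were not called and the median was −0.41.

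Among the genes with the largest changes outside these lists, Gngt2, a G protein subunit, had no healthy UMI and was at least 82.0-fold higher. Gcnt2, a glycosyltransferase, had 3 healthy UMIs against 439, a log2 ratio of 7.38 (95% counting interval 5.82 to 9.66). Of the called genes whose mean reached 50 CPM in a group, Dmxl2 and Nsg2 had the lowest fitted changes, with 173 healthy UMIs against 2 and 131 against 2. Their log2 ratios were −6.25 (95% counting interval −9.30 to −4.37) and −5.85 (−8.91 to −3.96). Sema6d, B4galt5 and Ptafr fell by 4.18, 3.52 and 3.39 on the log2 scale, each past the edgeR threshold.

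**Figure D5:**
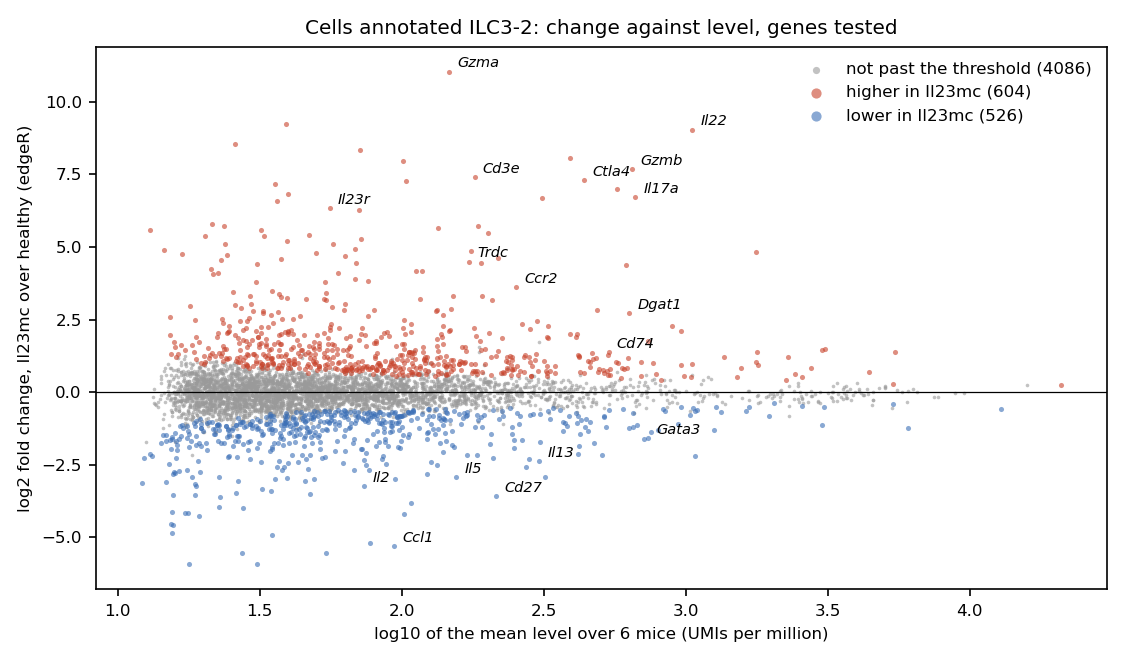
Log2 change, Il23mc over healthy, against the log10 of the mean level in CPM for the 5216 genes tested in cells annotated ILC3-2, with 604 higher genes in red, 526 lower genes in blue and 4086 others in grey. Gzma, Il22, Gzmb, Cd3e, Ctla4 and Il17a, in this order, lie at the top among the labelled genes, and Cd27, Gata3 and Il13 lie below 0.

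The groups did not overlap for 1667 of the 5216 genes (32.0%), among them 892 of the 1130 called. Of the called genes, 441 were called the same way with each mouse left out in turn. The number called fell to 648 without healthy mouse 3, 541 without Il23mc mouse 1 and 704 without Il23mc mouse 2, and was 595 with DESeq2. In sums over cells a smaller share of expressing cells and less RNA per cell cannot be told apart.

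Compared with the other ILCs of the same mice, the genes that stood out are a description, because the annotation was made from these genes. Over the 6 mice Nmrk1, a kinase of NAD synthesis, led with a mean difference of 2.17 in log2(CPM + 10), followed by Hopx with 2.06, Cd7 with 1.96, Rnf157 with 1.96 and Pde4a with 1.94. Ccr7, which guides cells to lymph nodes, had 1.92, Cd74 1.91, Itgae 1.86 and Ccr6 1.73. Each of these was higher in all 6 mice. In the healthy mice alone Hopx led with 2.84, at 611, 625 and 470 CPM against 69.0, 73.3 and 68.0 CPM in the other ILCs. In the Il23mc mice alone Gzma led with 2.43, Cd7 had 2.37 and Gzmb 2.25. Il22 had 2.07 there, but was higher than in the other ILCs in 2 of 3 mice. The 3 given markers thus did not lead in healthy mice.

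Levels in the other annotations put those values in order. In healthy mice Gata3 stood at 584, 789 and 598 CPM in ILC3-1, at 1157, 988 and 1048 CPM in ILC3-2 and at 2377, 2134 and 1865 CPM in ILC2-3. The mice of these 3 annotations did not overlap. Healthy Il13 stood at 52.4, 317 and 486 CPM in ILC3-1, overlapping ILC3-2, and at 1718, 1401 and 2605 CPM in ILC2-3. In the Il23mc mice Il17a stood at 1533, 2677 and 338 CPM in ILC3-1 and at 1456, 199 and 26.4 CPM in ILC2-1. Il22 stood at 2146, 3360 and 30.7 CPM in ILC3-1 and at 2433, 598 and 44.0 CPM in ILC2-1. In mouse 1 both cytokines were therefore lower in ILC3-2 than in either of these, and the mice of the 3 annotations overlapped.

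The hashtag gives a reading of surface label that is no gene count. The antibodies bind CD45 and MHC class I, whose light chain B2m is among the genes that rose, and the part of that rise in the label was not tested. The median hashtag UMIs per cell were 699, 783 and 658.5 in healthy and 984, 1163 and 952 in Il23mc cells annotated ILC3-2. Relative to the other ILCs of the same mouse, the ratio was 0.983, 0.886 and 0.892 in healthy and 0.903, 0.788 and 0.822 in Il23mc mice. It was below 1 in 6 of 6 mice, with a mean ratio of 0.877 and a two-sided exact sign-flip permutation p of 0.03125, the smallest that 6 mice allow. RNA UMIs per cell, as a description, were 1.13 times those of the other ILCs on average, and were lower than in those in Il23mc mice 1 and 2.

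Whether the change from healthy to Il23mc differed between ILC3-2 and ILC3-1 was tested in 1 model with an interaction term, over both annotations of 5 mice. Il23mc mouse 3 was left out of it, since it had 9 cells annotated ILC3-1. Of 7111 genes, 54 changed more upward in ILC3-2 (0.759%) and 77 more downward (1.08%) by edgeR's test. Gimap3, a GTPase of lymphocyte survival, stood at 6.57, 21.5 and 3.91 CPM in healthy and 73.6 and 81.2 CPM in Il23mc mice in ILC3-2. In ILC3-1 the healthy mice had 59.9, 140 and 38.3 CPM, and Il23mc mice 54.2 and 46.3 CPM, so that the difference of the log2 changes was 3.53 (edgeR adjusted p = 6.56e-07). Palld, an actin scaffold, stood in ILC3-2 at 220, 174 and 228 CPM in healthy mice, against 59.0 and 101 CPM in Il23mc mice. In ILC3-1 the healthy mice had 22.5, 3.05 and 27.8 CPM, and Il23mc mice 29.6 and 132 CPM (difference −3.19, edgeR adjusted p = 4.88e-06). In the means Palld was lower in the Il23mc mice in ILC3-2 and higher in ILC3-1. Without Cd3d or Cd3e cells its difference turned to 4.59 and did not pass (edgeR adjusted p = 0.851). Bmp2, a growth factor, and Ccr7 had differences of 3.06 and 4.13, since both were nearly absent from ILC3-1 of the Il23mc mice. Bmp2 lost its call without Il23mc mouse 2 (2.14) and Ccr7 without Il23mc mouse 1 (3.35). No interferon response gene of 17 and no type 1 or cytotoxic gene of 9 passed, which does not show that they changed alike. Without Il23mc mouse 1 the count was 28, and without mouse 2 it was 65. Without Cd3d or Cd3e cells it was 5 of 2474 genes, but that fit rested on 5, 8 and 5 ILC3-1 cells of the Il23mc mice and took in mouse 3. With mouse 3 taken in and all cells kept the count was 88.

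The same test against the 3 ILC2 annotations summed used all 6 mice and found 103 of 7490 genes with a more upward change in ILC3-2 (1.38%) and 166 with a more downward one (2.22%). Gzmb differed by 4.48 on the log2 scale (edgeR adjusted p = 1.56e-05), from 7.55, 7.88 and 16.9 CPM in healthy and 225, 115 and 38.5 CPM in Il23mc ILC2. Ccl1 stood at 286, 621 and 366 CPM in healthy ILC2 and at 416, 609 and 363 CPM in Il23mc ILC2, while it fell in ILC3-2 (difference −5.33, edgeR adjusted p = 2.52e-06). Cd83 and Cd70 differed by −3.92 and −4.27, and Cd70 lost its call without healthy mouse 2 (−3.90) or Il23mc mouse 1 or 2 (−3.34 and −4.19). Nlrp3, the inflammasome sensor, differed by 4.02, from 9.86, 0 and 4.47 CPM to 121, 147 and 128 CPM in ILC3-2, and was not called without healthy mouse 2 (3.27). The membrane proteins Ifitm2 and Ifitm3, which block virus entry, differed by 3.91 and 4.39. Gata3, Tox, Ikzf3 and Id2 changed more downward and Batf more upward in ILC3-2, among 21 factors tested. Of 7 lymphocyte cytokines Il2, Calca, Il5 and Csf2 changed more downward. H2-Ab1 and Cd74 changed more downward as well, and no interferon gene of 18 passed. The count of 269 fell to 163, 147 and 97 without healthy mouse 1, 2 or 3, to 154 without Il23mc mouse 2, and to 40 without Cd3d or Cd3e cells. All 3 comparisons share the ILC3-2 cells of these mice.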

How the data were processed

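Synovial ILCs of 3 wells (healthy, STA + Il23mc, and a mixed well of experiment 2) were used. The deposited matrices hold raw UMI counts per gene and cell, made by the authors with Cell Ranger on mm10. Its version is 6.1.2 per the file headers. The submitters' processing notes give 6.0.6. The deposited cell table gives, per cell, the authors' counts of UMIs, genes and hashtag UMIs, the mitochondrial fraction of UMIs, a hashtag call and margin score, and the annotation. The tools and thresholds behind that table are not given in the sources used here. Hashtag calls of the authors were used as they stand. Cells outside their table were left out, and no doublet caller was run, so doublets within a mouse remain.

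UMIs were summed per mouse and annotation, for mice with at least 10 cells. The ILC3-1 comparison without Cd3d or Cd3e cells took a minimum of 5, since 10 left too few mice, and so took in Il23mc mouse 3. The ILC3-2 sums held 86100 to 1791356 UMIs, so that 1 UMI is worth more in Il23mc mouse 3 than elsewhere. Sums were compared with edgeR 4.0.16 (quasi-likelihood test, TMM factors, filterByExpr; R 4.3.3) at a Benjamini-Hochberg adjusted p of 0.05 over all genes tested. Each fit held the groups it compares only. Differences of changes used an interaction term with mouse as a block. On counts simulated at these depths, the ILC3-2 comparison recovered 65.6% of 2-fold and 98.9% of 4-fold changes, with 9 false calls in 4972 genes. The interaction test recovered 31.6% and 72.2% against ILC3-1 (6555 genes, 4 false calls) and 28.7% and 73.5% against ILC2 (7143 genes, 2 false calls). The simulation gave every gene the same relative spread between mice, and holds no well effect and no outlying mouse. Recovery and false calls in the data may therefore be worse than these rates.

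Shares were compared with exact permutation tests. Intervals are exact 95% binomial or Poisson-based limits and cover counting error only. Alternatives were DESeq2 1.42.0, its size factors in edgeR, other filters on genes and cells, the second experiment, leaving out each mouse and leaving out cells with Cd3d or Cd3e UMIs. Removing also cells with Trdc, Tcrg-C1 or Tcrg-C2 UMIs, and removing Cd3d or Cd3e cells together with Il23mc mouse 3, were added after seeing the data. The cells, gene lists and alternatives were chosen with earlier results of these data known.

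The genes named are the 10 largest changes past the threshold in each direction, where the groups did not overlap and either group's mean reached 50 CPM, all tested members of the type 3 and T cell receptor lists, and up to 4 of each other list. To these come the 20 leading genes over the other ILCs and up to 10 genes per interaction test. Other members of a list are named where its count is described. Some genes that this rule names are not reported here. Scripts used pandas 2.3.3, numpy 2.4.6 and scipy 1.17.1 in Python 3.11.15, with matplotlib 3.10.9 for figures. Gene positions came from GENCODE on mm10.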

Additional observations from a re-analysis of the deposited data

Results flagged for a closer look

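A test of the difference itself set the change from healthy to Il23mc in cells annotated ILC3-2 apart from that in ILC3-1 for 131 genes. The named ones, as the difference of the log2 changes, were Epcam with 4.51, Ccr7 with 4.13, Gimap3 with 3.53, Cxcl10 with 3.51, Gimap5 with 3.16, Il1rl1 with 3.12, Cd3e with 3.12 and Bmp2 with 3.06, all more upward in ILC3-2. Tff1 with −3.48 and Palld with −3.19 were more downward, though the means of Tff1 rose in both annotations. In the means Epcam, Ccr7, Il1rl1 and Bmp2 were lower in the Il23mc mice in both annotations, and fell less in ILC3-2. Epcam fell from 22.8 to 7.68 CPM in ILC3-2 and from 63.4 to 0.410 CPM in ILC3-1. Il1rl1 fell from 26.0 to 19.0 CPM in ILC3-2 and from 144 to 16.5 CPM in ILC3-1. For Cd3e the healthy ILC3-1 cells of mouse 3 held 39.4 CPM and those of mice 1 and 2 none, and without that mouse the difference turned to −3.40 and was not called, so its direction rests on that mouse. Calls were also lost without Il23mc mouse 1 for Epcam (7.10), Ccr7 (3.35), Gimap5 (3.18) and Il1rl1 (2.71), without Il23mc mouse 2 for Epcam (3.41) and Bmp2 (2.14), without healthy mouse 2 for Gimap5 (3.12) and without healthy mouse 3 for Gimap5 (1.78) and Tff1 (−2.73).

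The same test against ILC2 set apart 269 genes. Cxcl3 with 4.49, Gzmb with 4.48, Ifitm3 with 4.39, Nlrp3 with 4.02, Ifitm2 with 3.91 and Gimap5 with 3.66 changed more upward in ILC3-2. Ccl1 with −5.33, Cd70 with −4.27 and Cd83 with −3.92 changed more downward.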

How the results depend on the processing

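The count of called genes in ILC3-2, 1130 as reported, was 595 with DESeq2 and 541 to 1554 with 1 mouse left out. It was 310 without Cd3d or Cd3e cells, 299 when cells with Trdc, Tcrg-C1 or Tcrg-C2 were removed too, and 307 without Cd3d or Cd3e cells and Il23mc mouse 3. With the mouse number as a replicate block it was 729. The numbers are not known to pair the mice. Same-numbered mice had deviations correlated at 0.02, 0.01 and 0.00, and the other pairs at −0.03 to 0.01. All were near 0, with the pair of mice 1 the highest. Ddx3y, a gene of the Y chromosome, stood at 256 CPM in healthy mouse 1 and 163 CPM in Il23mc mouse 1. It stood at 0 to 7.66 CPM in the other mice of the first experiment, so the number also carries sex. Other filters, size factors and the second experiment kept it within 1.5 times. The difference from ILC3-1, 131 genes, was 53 with DESeq2 and 28 to 152 with 1 mouse left out. It was 88 with a minimum of 5 cells, which takes in Il23mc mouse 3, and 5 with that minimum and without Cd3d or Cd3e cells. The difference from ILC2, 269 genes, was 168 with DESeq2, 97 to 360 with 1 mouse left out and 40 without Cd3d or Cd3e cells. The rise of the Cd3d or Cd3e share was 35.0 to 54.8 points under other definitions and thinning, 42.7 to 76.9 with 1 mouse left out, and 0.292 when any of 8 CD3 and receptor genes counted.

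Of 144 named gene results, 2092 repeats kept direction and side of the threshold, 229 lost the call, 28 gained it and 23 turned direction. Without Cd3d or Cd3e cells the turned log2 changes were Lck −0.83, Trbc2 −0.014, Lat −1.39, Cd3g −0.22, Ccr7 0.56 and Cox5a −0.27, and the Palld difference from ILC3-1 was 4.59. With Trdc, Tcrg-C1 and Tcrg-C2 cells removed too they were Lck −1.09, Trbc2 −0.063, Lat −1.43, Cd3g −0.17, Ccr7 0.73, Cox5a −0.29 and Dusp1 0.011. Without Cd3d or Cd3e cells and Il23mc mouse 3 they were Ikzf3 0.16, Zap70 −1.47, Lck −0.76, Lat −1.57, Cd3g −0.14, Ccr7 0.56, Cox5a −0.21 and Dusp1 0.22. The Cd3e difference from ILC3-1 ran from −3.40, without healthy mouse 3, to 3.44 with 1 mouse left out. The cause was not tested, though these sums hold fewer cells. Depth limits Il23mc mouse 3 most.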
